A study of Mus musculus with 96 samples.

Results

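The genes of glycolysis and of the tricarboxylic acid (TCA) cycle were followed in mouse bone marrow dendritic cells exposed to ligands of Toll-like receptors. The set holds 43 genes. They span glucose uptake, the steps from glucose to lactate, the entry of pyruvate into mitochondria, the TCA cycle and the hypoxia factor Hif1a. A gene counted as measured when a probe set annotated to that gene alone lay above the intensity floor of 20 on at least 1 array. Of the 43 genes, 36 were measured, among 10543 features tested in the whole series. They comprised 16 genes of glycolysis, 17 of the TCA cycle and 3 around the pyruvate gate, Pdk1, Pdha1 and Hif1a. The 17 include Idh1, Aco1 and Mdh1, which encode cytosolic enzymes outside the mitochondrial cycle. Suclg2 lay at the floor on every array. Slc2a6, Hk3, Gpi1, Eno1 and Dld had no probe set of their own in the annotation used here, and Pgam1 shared its probe set with another symbol, so these genes were not analysed here.

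Glycolysis splits glucose into pyruvate in the cytosol and pays out ATP quickly, and lactate dehydrogenase and a monocarboxylate exporter then carry the carbon out of the cell as lactate. Pyruvate dehydrogenase instead feeds the carbon into the mitochondrial TCA cycle, which is closed by the isocitrate dehydrogenases, oxoglutarate dehydrogenase, succinate dehydrogenase, fumarase and malate dehydrogenase. Dendritic cells and macrophages are known to raise glycolysis after Toll-like receptor stimulation, and the cycle in such cells is known for the build-up of citrate, itaconate and succinate. Messenger RNA levels, as measured here, are 1 layer of that control and say nothing of enzyme activity or flux.

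The primary dendritic cells were sampled at 9 times from 0.5 to 24 h after addition of 1 of 5 ligands, labelled Lps, Pic, Pam, Cpg and Grd. From knowledge of the study, these are taken as lipopolysaccharide, poly(I:C), a bacterial lipopeptide, CpG oligonucleotides and gardiquimod. No strain, genotype, age, dose or culture condition is given in the labels, and all groups are the same cell type. There were 2 arrays per ligand and time, but a single one for Cpg at 16 h and at 24 h. The Control group held 8 arrays of unstimulated cells, 1 each at 0, 1, 2, 4, 6, 8, 12 and 24 h. Times were grouped into an early window of 0.5, 1 and 2 h, a middle window of 4, 6 and 8 h and a late window of 12, 16 and 24 h, with 6 arrays per ligand and window, or 4 for Cpg in the last. Each window was compared with the 8 Control arrays, which all 15 comparisons therefore share. A feature was called when its limma p, adjusted by Benjamini and Hochberg over all features, was under 0.05 and the size of its log2 difference reached 1, a 2-fold change. A difference passing the adjusted p alone is described below as passing at any size. The error given with each log2 difference is the model's standard error.

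The 96 arrays held intensities from the floor of 20 to 16401.5, and replicate arrays correlated at 0.9853 to 0.9982. Precision rests on how many arrays each mean holds. Nothing in the labels ties the arrays of a group to separate cultures, so the p-values reflect the spread among these samples alone, and that spread may be technical. In the Control group the 6 h and 24 h arrays stood apart, with 148 and 341 features at least 2-fold from the median of the other Control arrays. Pfkp and Idh3a were the members so displaced, in the 24 h array. Among the ligand arrays, the Pam pair of 2 h differed most, at a correlation of 0.9853 with 180 features 2-fold apart, followed by the Cpg pair of 1 h, at 0.9919 with 93. No member was 2-fold apart in either pair. For Lps, Pic, Pam and Grd every time had a plate column of its own and none was shared with Control, so plate position and time or ligand cannot be told apart. The Cpg arrays shared 3 plate columns with the Control arrays.

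The label of dendritic cells was checked against markers. Itgax and the class II genes were bright, and the 9 measured dendritic cell markers summed to 23824 to 26240 on the Control arrays. Flt3, at 26.1 to 32.8, and Zbtb46, at 29.6 to 45, lay close to the floor. Between 12 and 24 h, the dendritic cell sum was 20077 to 25608 with Lps, 23169 to 24918 with Pic, 18791 to 25447 with Pam, 19484 to 23976 with Cpg and 17093 to 23620 with Grd. Each of the T cell, B cell, erythroid, mast cell and natural killer cell lists had 1 measured marker. The first 4, Cd3e, Cd79b, Klf1 and Mcpt8, were at the floor on every Control array, and Klrd1 reached at most 27. The 6 measured macrophage and monocyte markers summed to 17118 to 23842 on the Control arrays. In the late window they summed to 20150 to 25922 with Lps, 17209 to 20104 with Pic, 24395 to 31223 with Pam, 21571 to 27659 with Cpg and 23936 to 30952 with Grd. The 7 measured neutrophil markers summed to 5172 to 8190 on the Control arrays. In that last window they summed to 1207 to 3028 with Lps, 3917 to 6187 with Pic, 2285 to 3227 with Pam, 1598 to 3781 with Cpg and 2177 to 4392 with Grd. These sums moved with the ligand windows described below, and their part in the members' differences was not tested. In a bulk sample, fewer cells of a type and less RNA per cell cannot be told apart.

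The promoters of 4 members are printed because the results turn on them: Pfkp, the member raised most at 4 to 8 h, and Aldoc, Idh1 and Fh1, each called lower with at least 4 ligands. Each is a window of 300 bases, from 250 before to 50 after the first start site listed by RefSeq on assembly GRCm38.p6, read 5′ to 3′ on the strand of the gene. Capitals mark the core of the hypoxia response element, ACGTG or GCGTG on either strand, with overlapping matches each marked. Pfkp lies at chr13:6648722-6649021 on the minus strand, Aldoc at chr11:78322823-78323122 on the plus strand, Idh1 at chr1:65186430-65186729 on the minus strand and Fh1 at chr1:175625586-175625885 on the minus strand.
Pfkp: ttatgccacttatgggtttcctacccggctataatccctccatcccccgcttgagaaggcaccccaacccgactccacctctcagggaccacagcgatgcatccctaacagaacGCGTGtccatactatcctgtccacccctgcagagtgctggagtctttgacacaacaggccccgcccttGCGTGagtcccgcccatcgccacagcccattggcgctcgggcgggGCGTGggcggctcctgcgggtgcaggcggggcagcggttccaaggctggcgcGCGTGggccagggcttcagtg
Aldoc: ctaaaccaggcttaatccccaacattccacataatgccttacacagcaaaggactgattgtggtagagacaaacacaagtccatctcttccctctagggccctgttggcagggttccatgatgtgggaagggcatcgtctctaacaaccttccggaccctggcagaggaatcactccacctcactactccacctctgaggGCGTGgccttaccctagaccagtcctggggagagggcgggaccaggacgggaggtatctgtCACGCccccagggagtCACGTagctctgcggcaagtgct
Idh1: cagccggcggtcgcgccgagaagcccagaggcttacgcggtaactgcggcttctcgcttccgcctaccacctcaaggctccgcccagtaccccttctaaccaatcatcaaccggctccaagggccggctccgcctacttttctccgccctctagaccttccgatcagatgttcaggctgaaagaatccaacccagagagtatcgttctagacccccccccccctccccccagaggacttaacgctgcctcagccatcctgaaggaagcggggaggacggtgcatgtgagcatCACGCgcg
Fh1: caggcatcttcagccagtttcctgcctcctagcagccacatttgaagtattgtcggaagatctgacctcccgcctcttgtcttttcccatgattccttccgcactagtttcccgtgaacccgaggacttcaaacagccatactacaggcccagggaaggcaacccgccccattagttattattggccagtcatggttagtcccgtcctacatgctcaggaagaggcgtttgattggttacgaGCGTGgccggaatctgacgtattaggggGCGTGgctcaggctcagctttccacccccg
The Pfkp window held 4 matches, Aldoc 3, Fh1 2 and Idh1 1. Among the measured members with a window, 25 of 34 (73.5%) held at least 1 match, against 11836 of 27025 genes (43.8%) over the whole promoter table. The share was 11 of 16 (68.8%) in glycolysis and 11 of 15 (73.3%) in the TCA cycle. Ldha held the most matches, 7, and the 9 measured members with none were Hk1, Aldoa, Tpi1, Eno2, Pkm, Cs, Aco1, Idh3b and Dlst. Base composition was not matched between the members and all genes, and a match is a string of letters, not a bound site.

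No member was called at 0.5 to 2 h with any of the 5 ligands, and the count stayed at 0 for Pam without the 2 h arrays and for Cpg without replicate 1 of 1 h. Over all features, 2.12% were called with Lps, 0.854% with Pic, 2.38% with Pam, 2.14% with Cpg and 1.13% with Grd. The median log2 difference of the members was -0.07 with Lps, -0.06 with Pic, -0.04 with Pam, -0.09 with Cpg and 0.00 with Grd. The medians over all features were -0.03, -0.01, -0.04, -0.04 and -0.01 in the same order. Centring each array on its median moved the members' medians to 0.01, 0.00, 0.04, -0.03 and 0.02, so their sign was not settled. At any size, Slc2a1 and Pfkp were higher with each of the 5 ligands, Pfkp by 0.41 to 0.57. Lower with each were Idh1 (-0.60 to -0.42), Aldoc (-0.58 to -0.38), Mdh1 (-0.37 to -0.24), Sdha (-0.32 to -0.15), Idh3b (-0.28 to -0.12) and Idh3g (-0.19 to -0.12). All are differences from the mean of all Control arrays, some of which drifted with time. Control Idh1 was 2014 to 2390 at 0 to 2 h and reached 4195 later. Control Pfkp was 1539 to 1609 at 0 to 2 h and fell to 596.1. Against the 1 h Control array, Idh1 ran from -0.19 with Pam to 0.25 with Cpg. Pfkp then ran from -0.35 with Cpg to 0.11 with Pam. Against the 2 h Control array, Idh1 was -0.33 to -0.16 and Pfkp 0.18 to 0.48. Aldoc was -0.54 to -0.18 at 1 h and -0.22 to 0.01 at 2 h. Slc2a1, which encodes the glucose importer GLUT1, was 0.60 ± 0.11 higher on the log2 scale with Lps, 0.57 ± 0.11 with Pic, 0.63 ± 0.11 with Pam, 0.51 ± 0.11 with Cpg and 0.55 ± 0.11 with Grd. The Control arrays of the same hours were themselves high in Slc2a1, at 608.2, 579.9 and 686.6 at 0, 1 and 2 h, against 300.1 to 551.8 later. The ligand arrays of this window, at 485.9 to 849.5, overlapped them.

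The first calls came at 4 to 8 h, where Pfkp was called higher and Aldoc, Tpi1, Slc16a3, Pdk1, Aco1, Idh1, Idh3a and Fh1 were called lower with at least 1 ligand. With Lps, 1 member was called higher and 6 lower of 36, against 7.03% and 8.21% of all features. With Pic, 1 was called higher and 3 lower, against 4.9% and 2.79%. Pam gave 0 higher and 2 lower, against 3.47% and 4.01%. Cpg gave 0 higher and 4 lower, against 5.38% and 5.53%. Grd gave 0 higher and 4 lower, against 4.53% and 3.92%. The members thus stood at 16.7% lower with Lps, 8.33% with Pic, 5.56% with Pam and 11.1% each with Cpg and Grd. The Pam count became 1 without the Control array of 6 h. Without the 8 h arrays the counts called in either direction became 2 for each of Pic, Cpg and Grd, and without the 4 h arrays the Cpg count became 8.

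The smaller differences were more one-sided. At any size, 27 of 36 members (75%) were lower with Lps, 27 (75%) with Pic, 23 (63.9%) with Pam, 29 (80.6%) with Cpg and 26 (72.2%) with Grd. Over all features the shares lower at any size were 47.8%, 46.3%, 37.7%, 44.8% and 40.7%. Higher at any size were 5, 4, 6, 2 and 3 members, against 26.2%, 23.1%, 25.1%, 24.8% and 23.6% of all features. Of the 17 genes counted under the TCA cycle, 15 (88.2%) were lower with Lps, 17 (100%) with Pic and 13 (76.5%) with Pam. With Cpg and with Grd 15 each (88.2%) were lower. The median log2 difference of these 17 genes was -0.60, -0.51, -0.46, -0.55 and -0.48, against -0.11, -0.10, -0.03, -0.08 and -0.06 over all features. The 16 glycolysis genes had medians of -0.34, -0.23, -0.06, -0.32 and -0.10. They ranged on both sides of 0, from -1.15 to 1.28 with Lps.

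Over all features, the lean to lower values at any size turned to higher ones when each array was centred on its median. Centring cannot tell a technical shift from a true excess of lower transcripts, and the cause was not tested. Centring each array on its median raised the median of all features by 0.19 with Lps, 0.11 with Pic and 0.14 with Cpg at 4 to 8 h. After centring, the shares of all features lower and higher at any size were 34.4% and 46% with Lps, 35% and 38.4% with Pic, 30.2% and 38% with Pam, 32.7% and 43.5% with Cpg, and 31.7% and 39.6% with Grd. The calls over all features then split into 943 higher and 549 lower with Lps, 624 and 200 with Pic, and 689 and 418 with Cpg. Without centring they were 741 and 866, 517 and 294, and 567 and 583. The members still leaned to lower values after centring, with 23 lower and 6 higher with Lps, 27 and 5 with Pic, 22 and 6 with Pam, 25 and 4 with Cpg, and 23 and 6 with Grd. Their median was then -0.37 with Lps, -0.33 with Pic, -0.29 with Pam, -0.37 with Cpg and -0.34 with Grd.

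**Figure D1:**
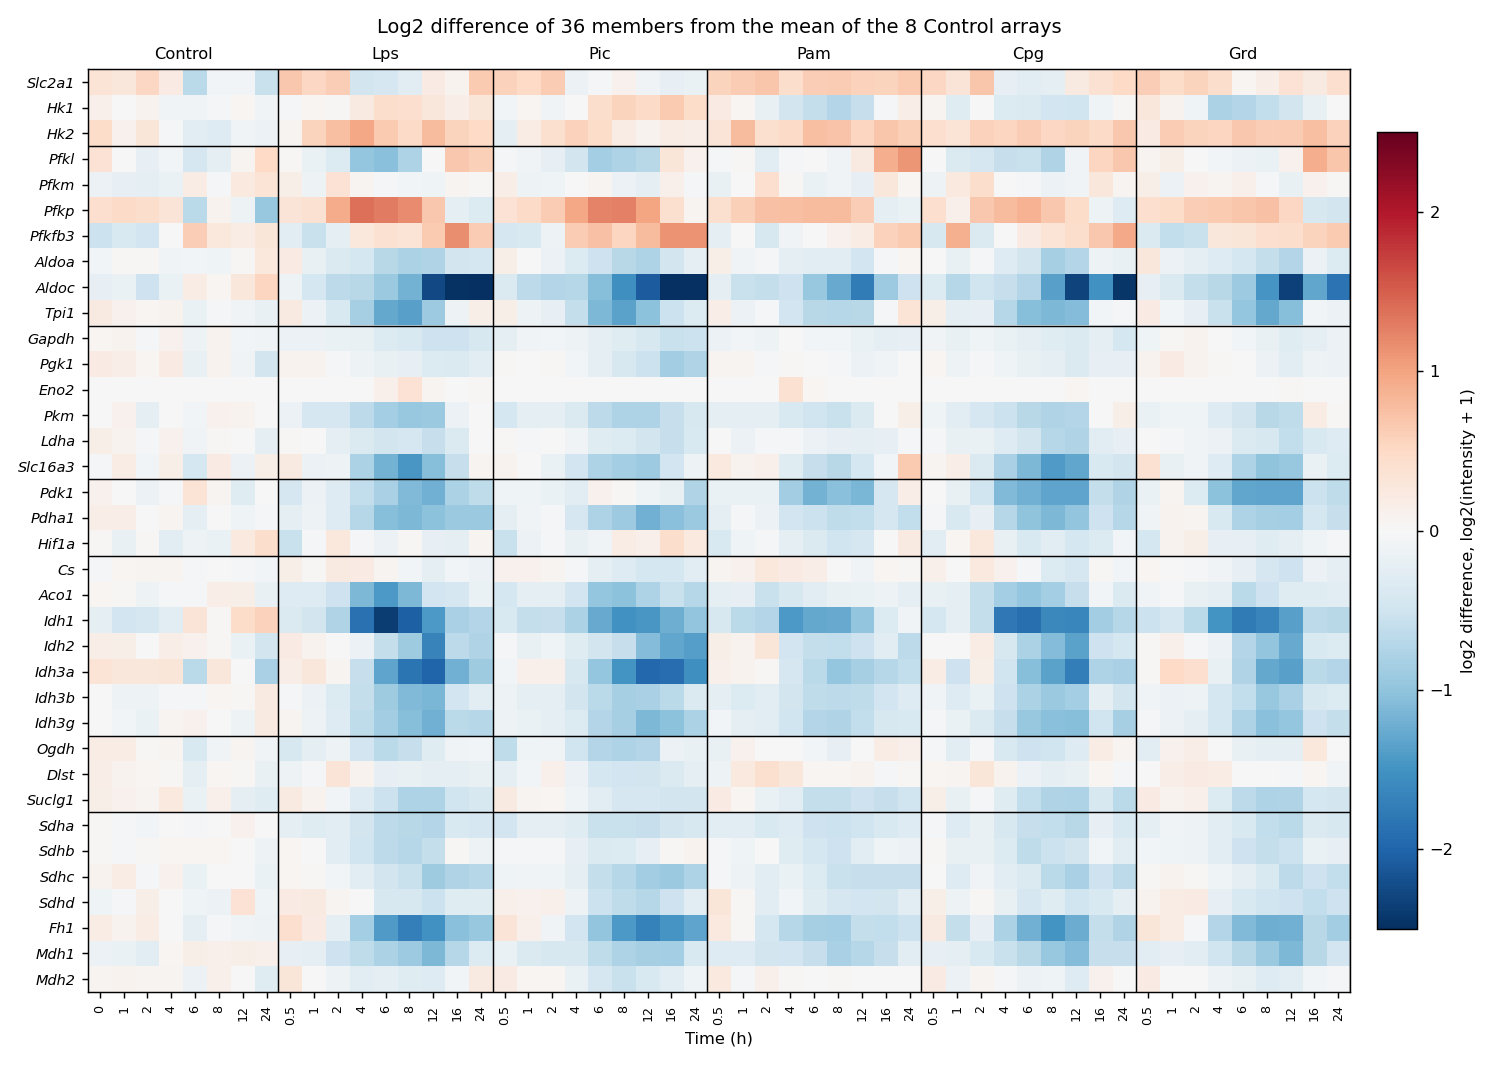
Log2 difference of each of the 36 measured members from the mean of the 8 Control arrays, with genes in rows by role and Control arrays and the mean of each ligand and time in columns (h). Red is higher and blue lower, the scale ends at 2.5 in either direction, and 3 Aldoc groups lie past it. The Aldoc row is the darkest blue, late in the course, the Idh1, Idh3a and Fh1 rows are blue from the middle times on, and the Pfkp row is red at 4 to 8 h.

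At 12 to 24 h, 4 members were called lower and 0 higher with Lps, against 4.42% and 4.67% of all features. With Pic, 6 were called lower and 1 higher, against 4% and 4.51%. Pam gave 1 lower and 0 higher, against 2.96% and 3.41%. Cpg gave 3 lower and 0 higher, against 3.23% and 3.86%. Grd gave 1 lower and 0 higher, against 2.88% and 3.84%. At any size 26 members (72.2%) were lower with Lps, 26 (72.2%) with Pic, 21 (58.3%) with Pam, 26 (72.2%) with Cpg and 25 (69.4%) with Grd. The shares of all features were 35.3%, 38.5%, 31.7%, 31.4% and 32.4%. Higher at any size were 5 members with Lps and 4 with each of the other ligands, against 27.4%, 26.9%, 23.6%, 22.7% and 25.5% of all features. Centring turned the split over all features with Pic to 32.1% lower and 41% higher, and the members to 26 lower and 6 higher. The TCA cycle median was -0.55 with Lps, -0.61 with Pic, -0.47 with Pam, -0.52 with Cpg and -0.55 with Grd, while all features had medians between -0.03 and -0.01. The glycolysis medians were -0.15, -0.32, -0.04, -0.19 and -0.17. Without the 12 h arrays the counts called fell to 2 with Lps and 1 with Cpg, and without the 24 h arrays the Grd count rose to 3. The Pam count became 0 without the Control array of 24 h, and the Grd count became 2 without the Control array of 6 h or of 24 h.

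**Figure D2:**
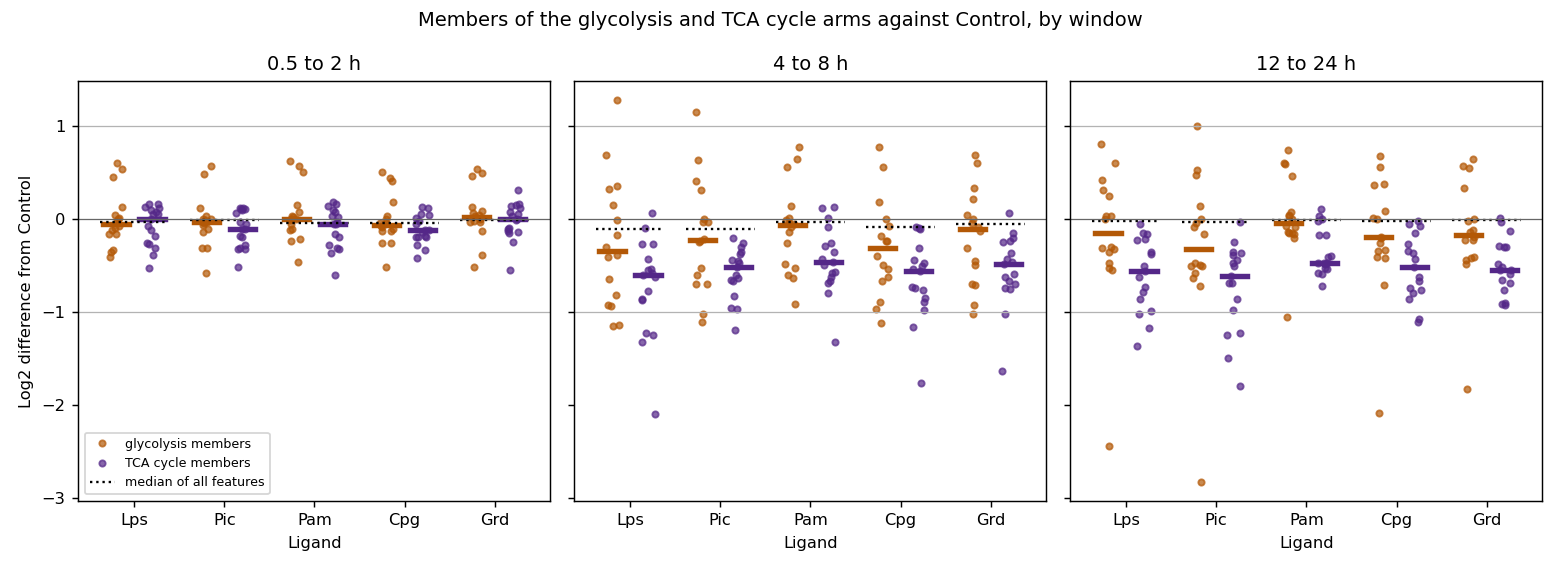
Log2 difference from Control of each measured member by window (panels) and ligand, with glycolysis genes in brown and TCA cycle genes in purple. Thick bars are medians of the 16 and 17 genes, dotted lines the median of all features tested, and grey lines mark a 2-fold change. The purple bars lie between -0.46 and -0.61 in the later panels, below the brown bars and the dotted lines.

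The members called higher in any window were Pfkp and Pfkfb3, which act at the committed step of glycolysis. Pfkp encodes the platelet form of phosphofructokinase, the enzyme that commits sugar to glycolysis. On the 8 Control arrays its intensity was 1539, 1609, 1568, 1452, 726.7, 1223, 1050 and 596.1 at 0, 1, 2, 4, 6, 8, 12 and 24 h. Between 4 and 8 h, the 6 Lps arrays ran from 2528 to 3025 with a median of 2855, and the 6 Pic arrays from 2179 to 2775 with a median of 2734. Every one of these 12 arrays lay above every Control array. The log2 difference was 1.28 ± 0.12 with Lps (limma adjusted p = 3.41e-14) and 1.16 ± 0.12 with Pic (limma adjusted p = 1.81e-12). The arrays of Pam, at 1909 to 2064, of Cpg, at 1822 to 2145, and of Grd, at 1724 to 2001, also lay above all Control arrays without reaching a 2-fold difference, at 0.78, 0.78 and 0.69. Without the low Control arrays of 6 h and 24 h the difference was 1.01 with Lps and 0.89 with Pic, and the Pic call was lost. At 24 h the Lps arrays read 904.5 and 923 and the Pic arrays 1193 and 1211, above the Control array of that hour and below those of 0 to 4 h.

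Pfkfb3 makes the sugar phosphate that activates phosphofructokinase, and its call came later. It was also high on the 2 Cpg arrays of 1 h, at 780.4 and 573.6, against 276.4 on the Control array of that hour. That Cpg pair was among the least alike, at a correlation of 0.9919. Between 12 and 24 h, the Pic arrays ran from 601.2 to 817 with a median of 756.4, above all Control arrays, which ran from 248.7 to 552.2. The difference was 1.01 ± 0.10 (limma adjusted p = 1.64e-12). Lps gave 0.81 ± 0.10, Cpg 0.69 ± 0.12, Grd 0.56 ± 0.10 and Pam 0.47 ± 0.10, all passing at any size with overlapping arrays. The Control array of Pfkfb3 read 248.7 at 0 h and 442.6 at 24 h. Against a linear trend fitted to the Control arrays the Pic difference was 0.62, and the call was also lost without the Control array of 0, 1 or 2 h (0.93, 0.95 and 0.94) or without the first replicate of each time (0.99). A second probe set of Pfkfb3, much dimmer, gave 1.08 in the same comparison and was called.

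Hk2, the inducible hexokinase, and Hk1, the housekeeping one, add the first phosphate to glucose. Hk2 was 700.1 on the Control array of 0 h and 403 to 624.9 on the others. In the middle window it was 663 to 1018 with Lps (0.69 ± 0.08), 571.6 to 813.2 with Pic (0.41 ± 0.08), 635.6 to 920.6 with Pam (0.65 ± 0.08), 695.6 to 785.8 with Cpg (0.56 ± 0.08) and 649.8 to 863.2 with Grd (0.61 ± 0.08). All 5 passed at any size, none was called, and the arrays of each overlapped the high 0 h Control array. They all lay above the Control arrays of 4, 6 and 8 h, at 495.1, 416.8 and 403. Against the single Control array of the same hour, the differences ran from 0.50 with Pam at 4 h to 1.05 with Pam at 8 h. Hk1 differed between ligands. Its Control arrays lay at 296.4 to 346.4, and at 4 to 8 h the Lps arrays lay above all of them, at 353.8 to 446.5. The Pam, Cpg and Grd arrays lay below all of them, at 173.2 to 233.5, 218.5 to 268.3 and 176.9 to 206.2. The Hk1 difference from Control was 0.36 ± 0.06 with Lps and 0.32 ± 0.06 with Pic, but -0.60 ± 0.06 with Pam, -0.39 ± 0.06 with Cpg and -0.71 ± 0.06 with Grd. A second Hk1 probe set gave 0.56 ± 0.12 with Lps, 0.37 ± 0.12 with Pic, -0.60 ± 0.12 with Pam and -0.55 ± 0.12 with Grd. With Cpg it gave 0.09 ± 0.12 (limma adjusted p = 0.539), so the lower value with Cpg rests on 1 probe set.

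Slc2a1 also separated Lps from Pam in the middle window, but not at 24 h. At 4 to 8 h the Pam arrays kept 613.4 to 769, where the Lps arrays lay at 334.4 to 401.5 and the Control arrays of 4, 6 and 8 h read 551.8, 300.1 and 455.7. Its difference from Control was 0.56 ± 0.11 with Pam and -0.38 ± 0.11 with Lps. In the late window the 6 Pam arrays, at 695.5 to 780.8, lay above every Control array (0.60 ± 0.11), while the Pic arrays, at 370.8 to 469.4, overlapped the Control arrays (-0.16 ± 0.11, limma adjusted p = 0.199). Control Slc2a1 had fallen to 327 at 24 h, and every ligand lay above that single array. The 24 h values were 757.5 with Lps, 754.9 with Pam, 671.5 with Cpg (1 array), 641.3 with Grd and 423.7 with Pic. Pfkl, the liver form of phosphofructokinase, moved opposite to Pfkp with Lps. Between 4 and 8 h, its Lps arrays lay at 100.6 to 135.4, below all Control arrays at 160.3 to 305 (-0.92 ± 0.09), and at 12 to 24 h they reached 212.9 to 354.9 (0.42 ± 0.09). Pfkm, the muscle form, stayed between the floor and 37.3 on all ligand arrays and passed in no window.

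**Figure D3:**
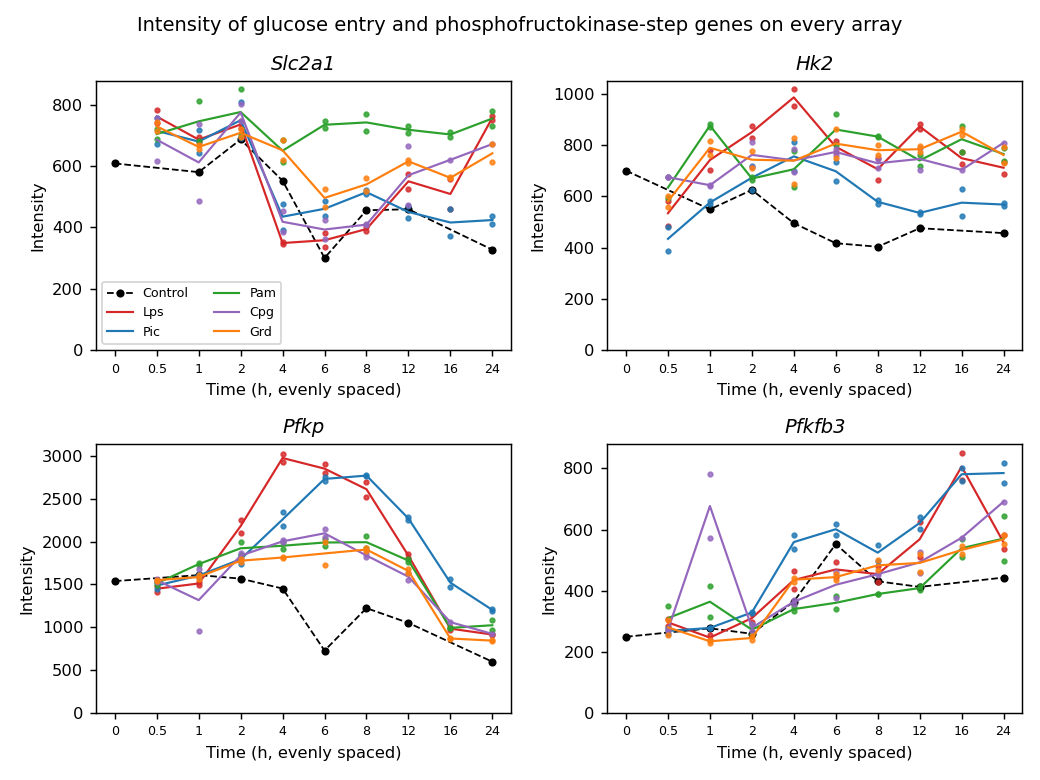
Intensity (linear scale from 0) of Slc2a1, Hk2, Pfkp and Pfkfb3 by time in h, with times evenly spaced. Dots are single arrays, coloured lines the mean of each ligand and time, and the black dashed line the single Control arrays. Pfkp peaks at 2979 in the 4 h Lps mean, above the highest Control array at 1609. Pfkfb3 is highest late, with high Cpg arrays at 1 h as well.

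Aldoc, an aldolase that splits the 6-carbon sugar phosphate and is known for its expression in brain, showed the largest fall of any member. Its Control arrays read 491 at 0 h and 815.5 at 24 h. At 12 to 24 h the Pic arrays lay at 44.6 to 148.5 with a median of 77.4, and the Lps arrays at 88.2 to 124.9 with a median of 101.3. The Cpg arrays lay at 103.9 to 195.3 and the Grd arrays at 110.1 to 234.2, while the Pam arrays, at 166.1 to 394.9, came closest to the lowest Control array at 395.7. No ligand array of that window overlapped the Control arrays. The log2 differences were -2.83 ± 0.09 with Pic (limma adjusted p = 1.94e-33) and -2.45 ± 0.09 with Lps. Cpg gave -2.09 ± 0.10, Grd -1.82 ± 0.09 and Pam -1.05 ± 0.09. The Pam call was lost in 5 of 21 alternatives, among them without the Control array of 24 h (-0.98), with the mean of both probe sets (-0.91) and without the 12 h arrays (-0.71). With Pam the intensity was 166.1 and 168.1 at 12 h and 394.9 and 392.3 at 24 h, whereas with Pic it fell further, to 44.6 and 49.9 at 24 h.

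The decline of Aldoc began earlier. In the middle window it was called with Pic (-1.11 ± 0.09) and Grd (-1.02 ± 0.09), and it was -0.93 with Lps, -0.91 with Pam and -0.89 with Cpg. The Pic call was lost in 5 of 21 alternatives and the Grd call in 9, the Pic call without the 8 h arrays (-0.89) and the Grd call without the 8 h arrays (-0.80) or without the Control array of 6 h, 12 h or 24 h (-0.997, -0.98 and -0.95). A second probe set for Aldoc, with a mean intensity of only 26.9, lay lower by 0.97 with Lps and 0.96 with Pic at 12 to 24 h and was not called, and it rested close to the floor.

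Aldoa, the common aldolase, was lower at any size with all 5 ligands at 4 to 8 h, by values from -0.65 ± 0.06 with Lps to -0.26 ± 0.06 with Pam, and was not called. Tpi1, which interconverts the triose phosphates, was called at 4 to 8 h with Lps and Pic. Its Control arrays ran from 890.1 to 1193, its Lps arrays from 388.6 to 585.6 and its Pic arrays from 399.6 to 693.6, with no overlap. The difference was -1.15 ± 0.05 with Lps (limma adjusted p = 1.45e-26) and -1.02 ± 0.05 with Pic. Centring the arrays ended both calls (-0.96 and -0.91). The Pic call ended in 6 of 21 alternatives, also without the 8 h arrays (-0.86) or without the Control array of 0 h (-0.99). By 24 h Tpi1 read 1111 and 1139 with Lps and 1292 and 1274 with Pam, above the 890.1 of the Control array of that hour, and 807.4 on both Pic arrays, below it. A second Tpi1 probe set gave -1.04 with Lps and was called, and -0.96 with Pic and was not. Over all members, there were 26 pairings of a called difference with another measured probe set of the same gene. Each Idh3a difference was counted once for each of its other probe sets. The other probe set was called the same way in 2, namely Tpi1 with Lps and Pfkfb3 with Pic, had the same sign without a call in 19 and the opposite sign in 0, and in the rest, all of Idh3a, it lay at the floor and gave no difference.

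Lower glycolysis moved less. Gapdh, which oxidises triose phosphate and is often used as a reference gene, was the brightest member, at 6726 to 7914 on the Control arrays. Between 12 and 24 h, it was 5022 to 5687 with Lps and 4936 to 5634 with Pic, below all Control arrays (-0.48 ± 0.03 and -0.50 ± 0.03). Pgk1, the next kinase, was lowest with Pic at 12 to 24 h, at 1343 to 1690 against 1785 to 2841 in Control (-0.72 ± 0.06). Pkm, pyruvate kinase, was lowest with Lps at 4 to 8 h, at 1417 to 2043 against 2636 to 3299 (-0.82 ± 0.06). Ldha, which turns pyruvate into lactate, was 2480 to 2714 with Lps at 4 to 8 h against 2890 to 3801 (-0.41 ± 0.04). Against the mean of all Control arrays it was lower at any size with all 5 ligands in both later windows. Control Ldha and Pgk1 were lowest at 24 h, at 2890 and 1785. At that hour Ldha was 3456 with Lps, 3364 with Pam and 2958 with Cpg (1 array), above Control, and 2759 with Grd and 2629 with Pic, below it. Pgk1 was then above Control with every ligand but Pic (1458). None of Gapdh, Pgk1, Pkm and Ldha was called in any window. Eno2, the neuronal enolase, lay at the floor on every Control array and reached at most 27.9 on any ligand array. It passed at any size with Lps (0.16 ± 0.02) and Pam (0.14 ± 0.02) at 4 to 8 h, values that rest on the floor.

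Slc16a3 encodes the lactate exporter MCT4, and it was dim, at 48.7 to 77.2 on the Control arrays. At 4 to 8 h it was 22.8 to 39.2 with Lps (-1.14 ± 0.08, limma adjusted p = 7.97e-18) and 22.7 to 37.6 with Cpg (-1.12 ± 0.08, limma adjusted p = 2.9e-17), with no overlap with Control. These values approach the floor. A larger pseudocount of 16 ended both calls (-0.85 and -0.84), as did centring (-0.95 and -0.97) and leaving out the 8 h arrays (-0.99 and -0.97). With Pam at 24 h the mean was 105.3, the highest of any group.

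At the pyruvate gate, Pdha1 encodes the catalytic alpha subunit of pyruvate dehydrogenase and Pdk1 a kinase that switches that enzyme off. Pdha1 lay at 588.2 to 778 on the Control arrays. In the late window the Pic arrays lay at 298.1 to 389.7 and it was called (-1.06 ± 0.04, limma adjusted p = 2.78e-30). The Lps arrays, at 327.4 to 371.5, gave -0.96 ± 0.04, while -0.74, -0.63 and -0.55 were found for Cpg, Grd and Pam, with no overlap with Control for any ligand. The Pic call was lost without the 12 h arrays (-0.99), with centring (-0.98) or against a Control trend (-0.95), while the sign held. Pdk1 was dim, at 41.6 to 65.3 on the Control arrays. Between 4 and 8 h, the Grd arrays lay at 20 to 26.8, the Cpg arrays at 20 to 27.9 and the Pam arrays at 21.8 to 28.6, all below Control. The differences were -1.22 ± 0.09, -1.21 ± 0.09 and -1.03 ± 0.09. With Pic the Pdk1 arrays lay at 37.4 to 57.5 in that window and overlapped Control (-0.04 ± 0.09, limma adjusted p = 0.729). A pseudocount of 16 ended the 3 Pdk1 calls (-0.85, -0.84 and -0.73), as did the mean of all measured probe sets (-0.73, -0.73 and -0.64), and the Pam call also ended with centring (-0.96) or without the Control array of 6 h (-0.98).

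Hif1a, the oxygen-regulated factor that drives many glycolytic genes, changed little in its transcript as a mean over each window. Its Control arrays ran from 1810 to 3010. Its largest difference was -0.37 ± 0.08 with Pam at 4 to 8 h, and the Pic difference at 12 to 24 h was 0.27 ± 0.08. It was called in no window. Single times varied more. At 0.5 h the arrays of Lps (1475 and 1526), Pic (1378 and 1649), Pam (1612 and 1768) and Grd (1494 and 1797) lay below every Control array. Those of Cpg did not, at 1814 and 1836, and Control had no array of 0.5 h. At 2 h the mean was 2669 with Lps, 2636 with Cpg and 2452 with Grd, against 2248 on the Control array. The Pic and Pam arrays of 2 h lay on both sides of that value.

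Of the genes counted under the TCA cycle, Idh1, Idh2, Idh3a, Fh1 and Aco1 were called lower. Among these, Idh1 and Aco1 encode cytosolic enzymes. Idh1, the cytosolic enzyme that makes NADPH from isocitrate, lay at 2390, 2014, 2111, 2324, 3533, 2882, 3875 and 4195 on the Control arrays of 0, 1, 2, 4, 6, 8, 12 and 24 h. In the middle window it lay at 537.9 to 769.9 with Lps, 747.1 to 938.8 with Cpg and 813.1 to 1034 with Grd. It lay at 1038 to 1187 with Pam and 927.6 to 1697 with Pic. No array of any ligand reached the lowest Control array. The log2 differences were -2.10 ± 0.10 with Lps (limma adjusted p = 1.95e-26), -1.77 ± 0.10 with Cpg and -1.64 ± 0.10 with Grd. Pam gave -1.33 ± 0.10 and Pic -1.19 ± 0.10. The lowest mean came at 6 h with Lps, at 541.4, at 4 h with Pam, at 1041, and at 8 h with Pic, at 987.8. Against the single Control array of the same hour, the 6 h Lps mean of Idh1 differed by -2.70.

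Idh1 stayed below the Control mean in the late window. At 12 to 24 h it was called with Pic (-1.22 ± 0.10) and Cpg (-1.07 ± 0.11) and was -0.99 with Lps, -0.90 with Grd and -0.48 with Pam. The Cpg call was lost without the Control array of 24 h (-0.99) or without the 12 h arrays (-0.79). At 24 h the Idh1 mean was 1700 with Lps, 1414 with Pic, 1745 with Grd and 2630 with Pam, against 4195 on the Control array.

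Idh3a is the catalytic subunit of the NAD-dependent isocitrate dehydrogenase of the cycle. Its Control arrays read 621.6, 601.8, 602.9, 607.5, 309.7, 600.7, 494.1 and 279.1 from 0 to 24 h, so the 6 h and 24 h arrays were about as low as many ligand arrays. Between 12 and 24 h, it lay at 121.3 to 172.8 with Pic, below all Control arrays (-1.80 ± 0.11, limma adjusted p = 2.15e-20). With Lps it lay at 109.1 to 287.3 and with Cpg at 146.3 to 290.6, overlapping the low Control arrays (-1.37 ± 0.11 and -1.11 ± 0.13). At 4 to 8 h it was called with Lps, at 125.7 to 343.2 (-1.25 ± 0.11). Against the Control arrays of the same times, which leaves out the Cpg array of 16 h, the Cpg value was -0.87, which ended that call. Without the 12 h arrays it was -0.79. Without the 8 h arrays the Lps value at 4 to 8 h was -0.95. The other 2 probe sets for Idh3a had means of 20.1 and 24.6, at or near the floor, and were not called, and the mean of all 3 probe sets ended every Idh3a call, at -0.75 with Pic, -0.61 with Lps and -0.51 with Cpg at 12 to 24 h and -0.51 with Lps at 4 to 8 h. A linear Control trend also ended the late Lps call, just short of 2-fold, and the late Cpg call (-0.74).

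The partner subunits Idh3b and Idh3g fell with it by less than 2-fold. Between 4 and 8 h, Idh3b lay at 574.2 to 870.6 with Lps against 1201 to 1543 in Control (-0.87 ± 0.05), and Idh3g at 384.5 to 525 against 718.5 to 942.3 (-0.86 ± 0.04). Both were below every Control array with all 5 ligands in that window, and Idh3g came closest to a call with Pic at 12 to 24 h (-0.97 ± 0.04). Idh2, the mitochondrial NADP-dependent enzyme, was dimmer and was called only later. At 4 to 8 h it was already lower at any size with all 5 ligands, at -0.76 to -0.45. In the late window it lay at 59.5 to 89 with Pic (-1.25 ± 0.08) and 55.8 to 121.2 with Lps (-1.02 ± 0.08), below all Control arrays at 132.9 to 203.4. The Lps call was lost without the 12 h arrays (-0.70), and both calls were lost against the Control arrays of the same times (-0.90 with Lps and -0.92 with Pic). That alternative left out the 16 h ligand arrays, since Control had no array of 16 h.

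Fh1, fumarase, hydrates fumarate to malate. It lay at 621.6 to 822.7 on the Control arrays. In the middle window it lay at 213.8 to 401 with Lps (-1.32 ± 0.06, limma adjusted p = 1.66e-26), 254.7 to 423.3 with Cpg (-1.16 ± 0.06) and 294.5 to 434.4 with Grd (-1.02 ± 0.06). It was also below all Control arrays with Pic (-0.97 ± 0.06) and Pam (-0.80 ± 0.06). At 12 to 24 h it was called with Pic, at 212.7 to 297.6 (-1.50 ± 0.06, limma adjusted p = 1.38e-28), and with Lps, at 241 to 383.9 (-1.17 ± 0.06). The Grd call was lost in 8 of 21 alternatives, among them without the 8 h arrays (-0.92), with centring (-0.92), against the Control arrays of the same times (-0.94), without the Control array of 0 h or 2 h (-0.99 each) and without the second replicates (-0.99). The Cpg call without the 8 h arrays and the late Lps call without the 12 h arrays both ended just short of 2-fold, at -0.995 and -0.996. At 0.5 h, before the fall, Fh1 stood above every Control array with Lps (925.3 and 997.8), Pic (945.5 and 867.5) and Grd (903.1 and 875.3). With Pam (818 and 906.7) and Cpg (807.2 and 876.9) 1 array of each pair did so. Control had no array of 0.5 h.

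Aco1, the cytosolic aconitase that doubles as an iron-responsive RNA-binding protein, was called with Lps at 4 to 8 h. Its Lps arrays lay at 173.1 to 247.5 against 429.9 to 545.5 in Control (-1.23 ± 0.06, limma adjusted p = 2.68e-25), and it kept that call in all 21 alternatives run. It gave -0.90 ± 0.06 with Cpg, -0.83 ± 0.06 with Pic, -0.48 ± 0.06 with Grd and -0.29 ± 0.06 with Pam. By 24 h the Lps arrays were back at 435.4 and 438.7, beside a Control array at 429.9.

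The other TCA genes moved by less than 2-fold. The 4 succinate dehydrogenase subunits were lower at any size with all 5 ligands at 4 to 8 h, with Sdhb at -0.62 ± 0.03 and Sdha at -0.60 ± 0.05 with Lps. Sdhc reached -0.86 ± 0.05 with Pic at 12 to 24 h. Mdh1, the cytosolic malate dehydrogenase, was -0.78 ± 0.04 with Lps at 4 to 8 h, while the mitochondrial Mdh2 was -0.27 ± 0.05. Suclg1, a subunit of succinyl-CoA ligase, was -0.59 ± 0.06 with Grd in that window. Cs, citrate synthase, moved little and both ways at 4 to 8 h, at 0.12 ± 0.04 with Pam, 0.07 ± 0.04 with Lps, -0.09 ± 0.04 with Cpg, -0.20 ± 0.04 with Pic and -0.24 ± 0.04 with Grd, and all but the Lps value passed at any size. Dlst and Ogdh, subunits of oxoglutarate dehydrogenase, differed between ligands in that window. Dlst ran from -0.35 with Pic to 0.13 ± 0.05 with Pam. Ogdh ran from -0.66 with Pic to -0.09 ± 0.07 with Pam, and was lower at any size with 3 ligands.

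**Figure D4:**
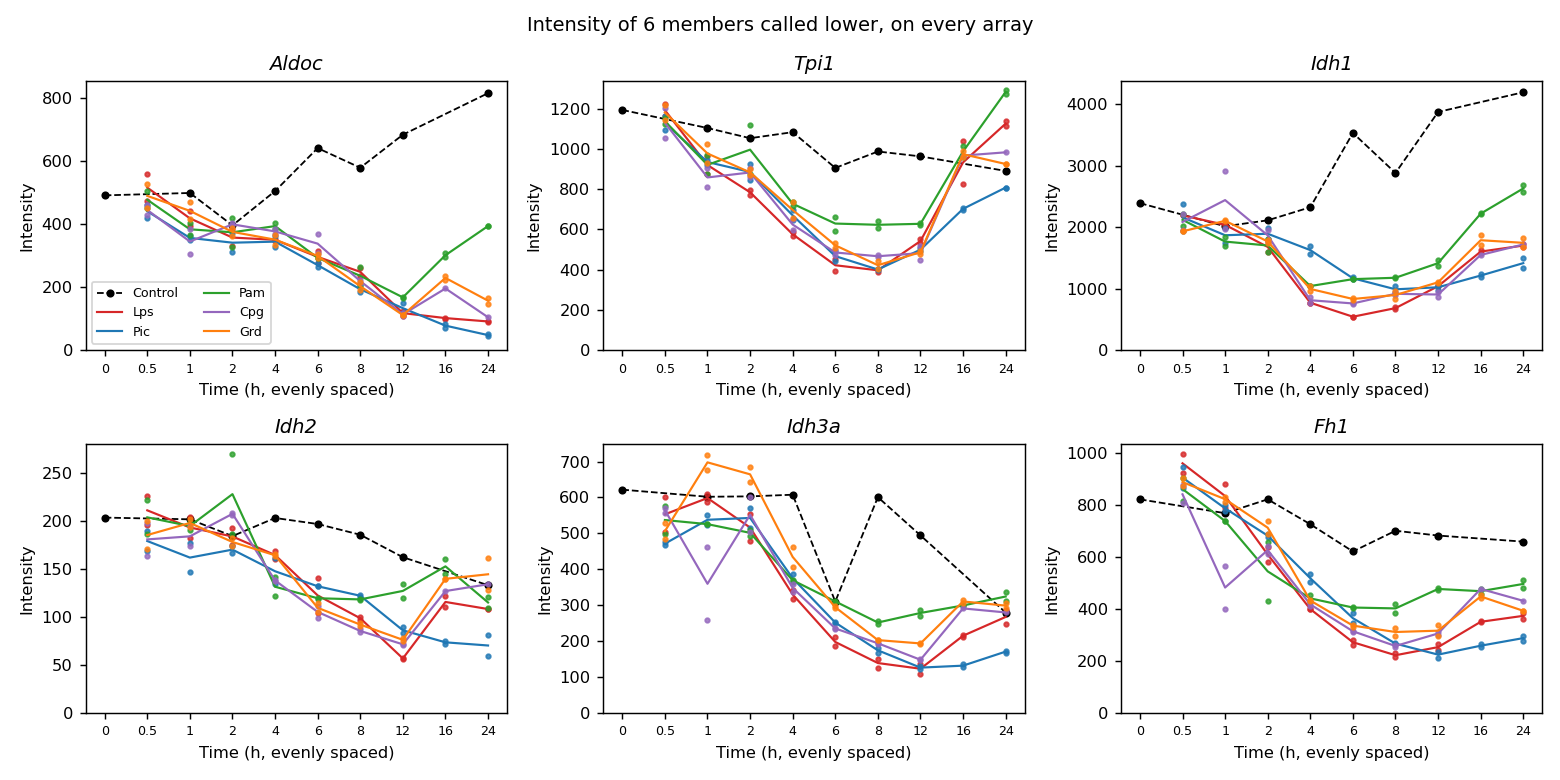
Intensity (linear scale from 0) of Aldoc, Tpi1, Idh1, Idh2, Idh3a and Fh1 by time in h, with times evenly spaced. Dots are single arrays, coloured lines ligand means and the black dashed line the single Control arrays. Tpi1 and Fh1 are lowest near 8 h, Idh1 with Lps at 6 h, and Aldoc with Pic keeps falling to a mean of 47.3 at 24 h.

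The ligands were also set against each other in 6 comparisons, of Lps, Pic and Pam at 4 to 8 h and at 12 to 24 h. No member was called at 4 to 8 h, where 3.71% of all features were called between Lps and Pic, 6.15% between Lps and Pam and 8.22% between Pic and Pam. Nearest to a call were Pdk1, at 37.4 to 57.5 with Pic and 21.8 to 28.6 with Pam (0.99 ± 0.10), and Hk1, 0.96 ± 0.06 higher with Lps than with Pam. The second Hk1 probe set gave 1.16 ± 0.13 between Lps and Pam and was called. Slc2a1 was 0.95 ± 0.12 lower and Aco1 0.94 ± 0.06 lower with Lps than with Pam, written as first minus second -0.95 and -0.94. Idh1 was lower with Lps than with Pic by 0.91 ± 0.10, that is -0.91. All of these pairs of groups were free of overlap. Centring shifted the median of all features between Lps and Pam by 0.12, changed its calls from 442 higher and 206 lower to 538 and 129, and gave 1 member call there and 1 between Pic and Pam. Without the 4 h arrays 2 members were called between Lps and Pam and 2 between Pic and Pam, and 1 between Lps and Pic.

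Between 12 and 24 h, 0 members were called between Lps and Pic, 1 between Lps and Pam and 2 between Pic and Pam, against 3.44%, 2.97% and 8.44% of all features. Aldoc was lower with Lps than with Pam by -1.39 ± 0.09 (limma adjusted p = 1.86e-18) and lower with Pic than with Pam by -1.77 ± 0.09 (limma adjusted p = 2.51e-23). Idh3a was lower with Pic than with Pam by -1.08 ± 0.12 (limma adjusted p = 2.42e-11), at 121.3 to 172.8 against 269.8 to 335.1. In all 3 the arrays of the 2 ligands did not overlap. The Lps, Pic and Pam groups lay in different plate rows, so plate row cannot be told apart from ligand. Their arrays of the same time shared a plate column. For Aldoc and Idh3a, averaging all probe sets brought the 3 differences to -0.80, -0.99 and -0.38, since the other probe sets lay near the floor.

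For Cpg, which shared plate columns with Control, the called differences were also taken within each column. At 4 to 8 h Idh1 gave -1.44, -1.67 and -2.08 in columns 10, 11 and 12, Fh1 gave -0.93, -1.25 and -1.34, Pdk1 gave -1.15, -1.16 and -1.33, and Slc16a3 gave -0.89, -1.23 and -1.26. In the late window Aldoc gave -2.12, -1.31 and -2.76 and Idh1 -1.28, -0.64 and -1.17. Idh3a gave -2.04, -1.05 and -0.32, the last against 3 Control arrays that included the low 6 h and 24 h ones. A column held 1 or 2 Cpg arrays and 2 or 3 Control arrays, so these values carry no test. All 7 kept their sign in every column. They were chosen as called on these same arrays, so a kept sign was likely from the start.

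Trends over time were also fitted to the unstimulated cells. Of all features, 3.25% had a called trend over the 8 Control arrays. Idh1 was the 1 member among them, with a fitted rise of 1.07 ± 0.27 from 0 to 24 h (limma adjusted p = 0.049), and its call was lost when the Control array of 1, 2, 4, 6, 8, 12 or 24 h was left out. Tpi1 fell by 0.41 ± 0.08 at any size (limma adjusted p = 0.0383). Pfkp (-1.34 ± 0.40) and Pfkfb3 (1.04 ± 0.30) had fitted trends of 2-fold or more that did not pass, with limma adjusted p of 0.067 and 0.0613. Aldoc had a fitted trend of 0.82 ± 0.23 (limma adjusted p = 0.0592), which did not pass.

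Other genes of these pathways were counted over whole lists. Over all features the share called higher was 3.41% to 7.03% and the share called lower 2.79% to 8.21% in the middle and late windows, so counts of 0 or 1 in lists of 5 to 11 genes are near the background. Among 10 measured of 21 other glycolytic genes, 0 were called higher and 1 or 2 lower in each late window. Ldhb, the other lactate dehydrogenase subunit, was lower at 12 to 24 h with all 5 ligands, from a Control mean of 189.6 ± 47.1 (SD, n = 8) to 46.2 with Lps (-1.98 ± 0.09) and 58.8 with Pam (-1.64 ± 0.09). Eno3 was lower with Lps (-1.02 ± 0.08) and Slc16a1 with Pic (-1.12 ± 0.12) at the same times. Among 5 measured of 7 pentose phosphate genes, Rpia was lower with Lps at 4 to 8 h (-1.04 ± 0.07) and no other was called. Around pyruvate dehydrogenase, with 7 measured of 15 genes, Pdk3, another inhibitory kinase, was higher with Pic at 4 to 8 h (1.31 ± 0.06). Pcx, which refills the cycle with oxaloacetate, was higher at 12 to 24 h with Pam (2.19 ± 0.10), Grd (1.72 ± 0.10), Cpg (1.66 ± 0.12) and Lps (1.39 ± 0.10), from a Control mean of 22.3 close to the floor.

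Of 20 further genes of the cycle and its refilling, 10 were measured. Acod1, which drains the cycle by making itaconate, was higher with Lps at 4 to 8 h (2.00 ± 0.10), from a Control mean of 2452 to 9352, and was called with all 5 ligands in both later windows at 1.80 or more. Me1, the cytosolic malic enzyme, rose at 12 to 24 h with Pam (2.18 ± 0.10), Grd (2.02 ± 0.10), Lps (1.82 ± 0.10) and Cpg (1.79 ± 0.11), and Slc25a10, a dicarboxylate carrier, rose with the same 4 ligands by 1.34 to 1.49. Sdhaf1, an assembly factor of succinate dehydrogenase, was lower at 4 to 8 h with Lps (-1.51 ± 0.07), Cpg (-1.27 ± 0.07) and Pic (-1.16 ± 0.07). Acly, which turns exported citrate into acetyl-CoA, was lower with Pic at 12 to 24 h (-1.15 ± 0.06). Among 11 measured of 18 genes of the hypoxia pathway, the calls went both ways. Ndrg1 was higher at 4 to 8 h with Lps (1.83 ± 0.10), Cpg (1.48 ± 0.10), Grd (1.42 ± 0.10) and Pic (1.38 ± 0.10). Bnip3 was lower with all 5 ligands in that window, from -1.40 ± 0.07 with Lps to -1.01 ± 0.07 with Pic. Vegfa was lower with Pam (-1.26 ± 0.19), Lps and Cpg, from a Control level that varied widely (66.6 ± 42.7, SD, n = 8). Vhl was lower at 0.5 to 2 h with Pam (-1.25 ± 0.11) and Lps (-1.14 ± 0.11).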

How the data were processed

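RNA of 96 dendritic cell samples was hybridised to one-colour Affymetrix arrays. The deposited table holds linear intensity values for 18858 probe sets with a floor of 20. Per the submitters' processing notes they were made with RMA, whose version and settings are not given in the sources used here. Values were taken as log2(intensity + 1) without further normalization, and a fold change is on that scale, which understates changes near the floor. Of the probe sets, 15044 had 1 symbol, 257 several and 3557 none. The 4409 probe sets that never rose above the floor were dropped, and the probe set with the highest mean stood for a gene, giving 7741 named genes and 2802 unnamed probe sets. limma 3.58.1 in R 4.3.3 was fitted with a mean per ligand and time and 1 Control mean, 50 residual degrees of freedom, and p-values adjusted by Benjamini and Hochberg over 10543 features. The Control trend was fitted on log2(h + 1). The scripts were tested on simulated data. All members could be named. Other pathway genes were named only if called and among the 3 largest of their list in a window. The members and lists were chosen with earlier results of these data known. Replicate numbers were checked for pairing by correlating replicate differences between groups (median 0.0076, 157 of 903 over 0.1), and did not pair the samples.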

Additional observations from a re-analysis of the deposited data

Results flagged for a closer look

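In the Control group 2 of 35 members checked had 1 array far from the other 7, and chance flags about 1 in 20 such groups. Aldoa read 2855.4 on the Control array of 24 h, where the others ran from 2197.7 to 2436.1. Ogdh read 215.6 on the Control array of 6 h, where the others ran from 266 to 320.1. Both arrays are those that also stood apart over all features.

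The response to 2 ligands differed by a direct limma comparison in 3 cases at 12 to 24 h. Aldoc differed by -1.39 between Lps and Pam and by -1.77 between Pic and Pam, and Idh3a differed by -1.08 between Pic and Pam. In 3 further cases every array of one ligand lay above the Control mean and every array of the other below it. They were Slc2a1, Lps against Pam at 4 to 8 h (-0.95), Hk1, Lps against Pam at 4 to 8 h (0.96), and Slc2a1, Pic against Pam at 12 to 24 h (-0.76). The limma adjusted p was 3.79e-10, 2.26e-20 and 9.36e-08, and all stayed under a 2-fold difference. For Slc2a1 the side depended on the Control array used. Against the single Control array of the same hour, Lps was 0.25 higher at 6 h and Pic 0.37 higher at 24 h.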

How the results depend on the processing

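Of 41 called results for single members, 13 kept their call in every alternative run and 28 lost it in at least 1. None of the 828 alternatives over these results reversed a sign, and 731 kept the call. The 41 were chosen as called on arrays that the alternatives largely reuse, so a kept sign was likely from the start. Counts of members called moved by over 1.5 times as follows, and the cause was not tested. Centring gave 2 for Pic, 1 for Pam and 2 for Grd at 4 to 8 h, 1 for Lps against Pam, 1 for Pic against Pam and 3 for the Control trend. A pseudocount of 16 gave 1 for Pam, 2 for Cpg and 1 for Grd at 4 to 8 h. The mean of all probe sets gave 2 for Pic, 1 for Pam, 2 for Grd and 1 for Lps against Pam at 4 to 8 h, and 0 for Pam, 0 for Lps against Pam and 0 for Pic against Pam at 12 to 24 h. Array weights gave 7 for Cpg at 4 to 8 h, 0 for Pam and 2 for Grd at 12 to 24 h, and 2 for the Control trend. Without the first time of a window the count was 8 for Cpg, 1 for Lps against Pic, 2 for Lps against Pam and 2 for Pic against Pam at 4 to 8 h, and 2 for Lps and 1 for Cpg at 12 to 24 h. Without the last time it was 2 for Pic, 2 for Cpg, 2 for Grd and 1 for Lps against Pic at 4 to 8 h, and 3 for Grd at 12 to 24 h. Control arrays of the same times, with the 16 h ligand arrays left out, gave 2 for Pam and 2 for Grd at 12 to 24 h. A linear Control trend gave 2 for Grd in that window. Without the Control arrays of 6 h and 24 h, an alternative chosen after seeing the data, the count was 1 for Pam at 4 to 8 h, 0 for Pam and 2 for Grd at 12 to 24 h. The plate column as a block gave 5 for Cpg at 12 to 24 h. For the Control trend, no filter gave 0 and a slope on hours gave 2. Leaving out 1 Control array gave 1 to 2 for Pam at 4 to 8 h, 0 to 1 for Pam and 1 to 2 for Grd at 12 to 24 h, and 0 to 1 for the Control trend. Leaving out a replicate gave 0 to 1 for Lps against Pam and for Pic against Pam at 4 to 8 h. The replicate block changed no count of members called, with 7 for Lps at 4 to 8 h and 7 for Pic at 12 to 24 h in both fits. Signal close to the floor limits Pdk1, Slc16a3, Pfkm and Eno2.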
